A study of Mus musculus with 9 samples.

Results

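The genes described here are 10 genes of lymphoid priming and of the B lineage: Dntt, Rag1, Il7r, Ccr9, Satb1, Ighm, Ebf1, Pax5, Cd79a and Blnk. They were chosen by name, and every probe set of the array that the platform annotation gives to exactly 1 of these symbols was taken, which came to 36 of 45037 probe sets and 10 of 18193 genes measured. A probe set is a group of short probes read as 1 measurement. Ighm held 11 of the 36, Ccr9, Satb1 and Ebf1 5 each, Dntt 3, Il7r and Pax5 2 each, and Rag1, Cd79a and Blnk 1 each. Another 4 probe sets name a member among several genes and were not used.

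The study sorted bone marrow progenitors from 6-week-old mice and hybridized amplified RNA to Affymetrix expression arrays, with 3 arrays in each of 3 groups. LSK WT cells (lineage-negative, cKit+, Sca1+), a gate for blood stem cells and multipotent progenitors, and GMP WT cells (lineage-negative, cKit+, Sca1-, CD34+, FcgammaRII/III+), the granulocyte-monocyte progenitors, came from Ncstn flox/flox mice without Cre. GMP NcstnKO cells passed the same GMP gate and came from Ncstn flox/flox Mx1-cre+ mice. Ncstn encodes nicastrin, a subunit of the gamma-secretase protease that cleaves Notch receptors. Animals of both genotypes were littermates and all were injected 3 times with polyIC, a double-stranded RNA that induces interferon, at 20 mcg per g of body weight, starting at 14 days of age and ending in analysis 4 weeks later. The Mx1 promoter is switched on by interferon and is not restricted to 1 blood lineage, and the WT mice carry the floxed alleles and the polyIC treatment but no Cre. The labels do not say whether each array came from a separate mouse, so the p-values measure the spread between these samples, which may be technical in part. By Xist and Y-linked transcripts, array 1 was female and arrays 2 and 3 male in both wild-type groups. Each of these groups thus drew on more than 1 mouse. For arrays of the same transcript sex, among them all 3 of GMP NcstnKO, separate mice remain unknown.

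Lymphoid priming is the low-level transcription of lymphoid genes in multipotent progenitors before commitment. Terminal deoxynucleotidyl transferase (Dntt) and the RAG recombinase then assemble antigen receptor genes, interleukin 7 signals support early lymphoid cells, and the transcription factors Ebf1 and Pax5 set up the B cell programme, with the immunoglobulin heavy chain (Ighm) and its signalling partners Cd79a and Blnk acting in the pre-B and B cell receptor. GMP are a later, myeloid stage.

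E boxes, the letters CANNTG on either strand, are what the lymphoid E proteins encoded by Tcf3 and Tcf4 are known to bind. The upstream sequences of some of the members are therefore shown. RefSeq windows of build GRCm38.p6, 250 bases ending just before an annotated start, were matched for 9 of the 10 genes, with 14 windows among them. They are written 5′ to 3′ on the strand of the gene, in lower case with each E box in capitals. The windows printed are Dntt at chr19:41029025-41029274 on the plus strand, Rag1 at chr2:101649533-101649782 on the minus strand, Il7r at chr15:9529877-9530126 on the minus strand, Cd79a at chr7:24897247-24897496 on the plus strand and Blnk at chr19:40994222-40994471 on the minus strand.
Dntt: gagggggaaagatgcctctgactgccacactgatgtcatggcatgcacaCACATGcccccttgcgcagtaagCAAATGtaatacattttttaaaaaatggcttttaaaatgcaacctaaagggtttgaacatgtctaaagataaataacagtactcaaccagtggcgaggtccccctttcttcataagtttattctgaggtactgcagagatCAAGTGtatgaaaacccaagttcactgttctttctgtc
Rag1: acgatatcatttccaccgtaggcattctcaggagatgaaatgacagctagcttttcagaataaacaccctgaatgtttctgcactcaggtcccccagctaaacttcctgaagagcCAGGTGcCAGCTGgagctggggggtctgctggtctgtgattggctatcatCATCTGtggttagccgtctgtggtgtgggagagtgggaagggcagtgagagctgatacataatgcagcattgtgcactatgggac
Il7r: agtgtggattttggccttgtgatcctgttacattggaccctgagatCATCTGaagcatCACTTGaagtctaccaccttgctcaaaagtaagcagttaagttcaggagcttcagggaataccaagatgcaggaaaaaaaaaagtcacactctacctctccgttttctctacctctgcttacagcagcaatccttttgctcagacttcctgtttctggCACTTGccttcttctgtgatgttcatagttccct
Cd79a: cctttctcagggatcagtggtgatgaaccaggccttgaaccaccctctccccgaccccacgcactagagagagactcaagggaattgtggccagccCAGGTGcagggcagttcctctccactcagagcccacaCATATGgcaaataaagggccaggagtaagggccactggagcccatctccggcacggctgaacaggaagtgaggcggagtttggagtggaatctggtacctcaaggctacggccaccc
Blnk: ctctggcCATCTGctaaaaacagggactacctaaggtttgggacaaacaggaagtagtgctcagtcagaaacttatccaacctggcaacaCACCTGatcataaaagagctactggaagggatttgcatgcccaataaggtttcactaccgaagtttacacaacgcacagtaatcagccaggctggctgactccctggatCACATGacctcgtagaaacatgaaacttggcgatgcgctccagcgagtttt
An E box stood in at least 1 window of 9 of 9 genes and in 10 of the 14 windows, and 66.2% of all 32851 windows in the table held it, so its presence is common. Dntt, Rag1, Il7r and Blnk held 3 E boxes each and Cd79a 2, where the median over all windows was 1. Ccr9, whose window is not printed, held 2. The windows of Satb1, Ebf1 and Pax5 are not printed either, so those printed do not stand for all 14. Of the 14 member windows, 7 held 1 or none: 4 of the 5 of Satb1, both of Ebf1 and that of Pax5. The octamer ATGCAAAT, or its complement ATTTGCAT, was found among the members in the Blnk window alone, and 1.6% of all windows held it. The RUNX letters TGTGGT or ACCACA stood in a window of Rag1 and of Ebf1 (14% of all windows), and the Ikaros core TGGGAA or TTCCCA in a window of Rag1, Satb1 and Ebf1 (21.6%). The letters CCCNNGGG, the core bound by EBF proteins (11.8% of all windows) and the PU.1 letters GAGGAAG or CTTCCTC (10.6%) were in 0 of the 14 windows. The motifs are matches of letters and were read in these windows alone.

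All values below are log2 intensities, and a difference of 1 is a 2-fold change. The signal on a probe set was taken as at background when it was not above the 95th percentile of 27 control probe sets for unspiked bacterial transcripts, a limit of 4.3 to 4.57 by array. The median intensity was 98.3 to 103 on the LSK arrays and 65.4 to 68.6 on the GMP arrays (linear scale), and the median log2 difference of all probe sets was -0.20 in GMP WT against LSK WT. That median was 0.06 by quantile normalization and 0.15 by 75th percentile centring, and the share of all called probe sets that were higher in GMP WT was 17.3%, 57.7% and 67.6% in turn. Xist and Y-linked transcripts went against the sex in the labels on 4 of 9 arrays: GMP WT arrays 2 and 3, labelled female, carried male transcripts, and GMP NcstnKO arrays 2 and 3, labelled male, carried female transcripts. Ncstn itself (1418570_at) read 9.25, 9.31 and 9.26 in GMP WT and 7.79, 7.78 and 7.76 in GMP NcstnKO, a difference of -1.5 ± 0.08 (SE; limma adjusted p = 0.00132), and its other probe set (1444532_at) did not pass the test (0.13, adjusted p = 0.753). Of the markers of the gates, Mecom and Procr were lower in GMP WT than in LSK WT (-3.53 and -3.81), and Elane and Fcgr3 higher by 1.18 and 1.10, with limma adjusted p of 0.00627 or less. Kit and Cd34, which belong to the GMP gate too, were lower in GMP WT than in LSK WT (-0.49, adjusted p = 0.0145, and -0.40, 0.0345). Ly6a and Cebpe were not measured by a probe set under those symbols.

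**Figure D1:**
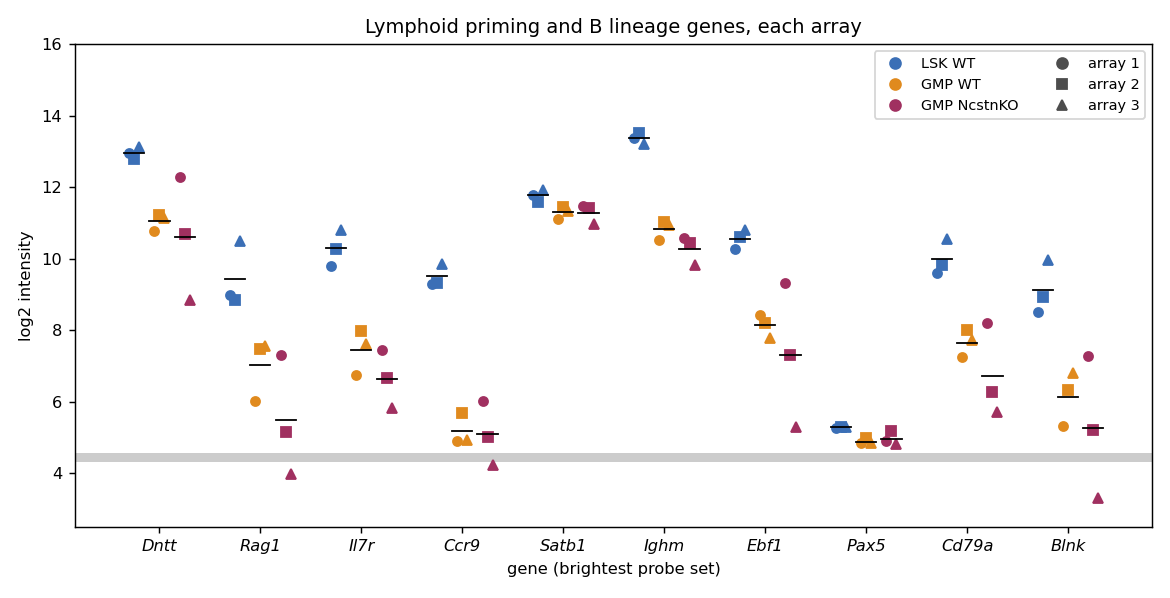
Log2 intensity of the brightest probe set of each of the 10 genes on each of the 9 arrays, coloured by group with a symbol for each array number; black lines are group means and the grey band is the range of the background limits, 4.3 to 4.57. LSK WT arrays lie above the GMP WT arrays for every gene, and GMP NcstnKO array 3 (triangle) is the lowest of its group for all 10 genes.

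The first comparison, GMP WT against LSK WT, asks how the lymphoid genes differ between the multipotent fraction and the myeloid stage. Of the 36 probe sets, 23 were lower in GMP WT and 0 higher at a limma adjusted p under 0.05, where 28.8% of all probe sets were lower and 6.04% higher. Counted by the brightest probe set of each gene, 8 of 10 genes were lower (29.2% of all genes). The median difference of the 36 was -2.10, beside -0.20 over all probe sets. The 3 GMP WT arrays lay below all 3 LSK WT arrays on 27 of the 36 probe sets (40.3% of all probe sets) and in 10 of 10 genes (41.5% of all genes). The members' median was -1.84 by quantile normalization and -1.75 by 75th percentile centring, and 15 and 17 of the 23 calls remained. With the Actb ratio, a measure of RNA quality given below, as a covariate, 11 of the 23 remained: the calls lost were 1 of Dntt, 1 of Ccr9, 4 of Satb1, 3 of Ebf1, 1 of Pax5 and those of Cd79a and Blnk. RNA from a sorted population was measured, so fewer cells that carry a transcript and less of it in each cell cannot be told apart.

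Dntt, the polymerase that adds untemplated bases at receptor gene joints, read 12.94, 12.79 and 13.12 in LSK WT on its brightest probe set (1449757_x_at). It read 10.76, 11.23 and 11.13 in GMP WT and 12.29, 10.68 and 8.85 in GMP NcstnKO. The wild-type groups did not overlap, and the GMP NcstnKO arrays spanned 3.44 log2 units where GMP WT spanned 0.47. The difference of GMP WT from LSK WT was -1.91 ± 0.69 (SE), or 3.76-fold, with a limma adjusted p of 0.062. The 9-array fit shares 1 spread among the groups, and the SD of Dntt was 0.163 in LSK WT, 0.25 in GMP WT and 1.72 in GMP NcstnKO. In a fit of the LSK WT and GMP WT arrays alone the adjusted p was 0.000664. It was 0.00255 there with same-numbered arrays paired, a setting chosen after seeing the data. Without GMP NcstnKO array 1 it was 0.0106 and without array 3 0.00686. It did not pass after quantile normalization (0.0615) or centring on the 75th percentile (0.104). Nor did it pass with same-numbered arrays paired over all 9 arrays (0.0743) or with the Actb ratio (-1.30, 0.288). This probe set was called in 6 of 21 alternatives. The probe set 1420166_at gave nearly the same values (-1.95, adjusted p = 0.0701), and 1450545_a_at fell further, from 12.71, 12.55 and 12.95 to 9.07, 9.78 and 9.78 (-3.19 ± 0.73, adjusted p = 0.0107).

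Rag1, a subunit of the recombinase that cuts receptor gene segments, read 8.98, 8.84 and 10.49 in LSK WT and 6.03, 7.46 and 7.56 in GMP WT. The lowest LSK WT array lay above the highest GMP WT array. The difference was -2.42 ± 0.83, or 5.35-fold, with a limma adjusted p of 0.0516. It passed in a fit of the wild-type arrays alone (adjusted p = 0.0204, and 0.00859 with same-numbered arrays paired). It also passed without GMP NcstnKO array 1 (0.0164) or array 3 (0.032). It did not pass after quantile normalization (-1.99, 0.117) or centring on the 75th percentile (0.0774). Nor did it pass with the Actb ratio (0.198) or with same-numbered arrays paired over all 9 arrays (0.0891). Rag1 was called in 7 of 21 alternatives.

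Both receptors among the members were called lower. Il7r, the alpha chain of the interleukin 7 receptor, read 9.79, 10.27 and 10.81 in LSK WT and 6.75, 7.98 and 7.61 in GMP WT (1448575_at), a difference of -2.84 ± 0.46, or 7.17-fold (limma adjusted p = 0.00214). Its dimmer probe set 1448576_at differed by -1.43 (adjusted p = 0.0519) and was called in 4 of 19 alternatives. One of these was a fit of the wild-type arrays alone with same-numbered arrays paired. The difference was -0.87 (0.239) by quantile normalization, -1.08 (0.113) by 75th percentile centring and -0.94 (0.266) with the Actb ratio. Ccr9, a chemokine receptor that guides progenitors to the thymus, had the widest difference among the brightest probe sets of the 10 genes. It read 9.30, 9.33 and 9.86 in LSK WT and 4.90, 5.68 and 4.93 in GMP WT (1421920_a_at), or 20.1-fold lower (-4.33 ± 0.42, adjusted p = 0.000214). All 5 Ccr9 probe sets were lower, and 2 of them were at background on all 3 GMP WT arrays: 1427419_x_at was at least 6.99-fold and 1436065_at at least 2.58-fold lower than in LSK WT. The call of 1436065_at was lost after quantile normalization and without LSK WT array 2 or GMP WT array 1.

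Satb1, a chromatin organizer of lymphoid cells, stayed bright in GMP. Its brightest probe set (1416008_at) read 11.78, 11.58 and 11.93 in LSK WT and 11.10, 11.43 and 11.33 in GMP WT. The difference of -0.48 ± 0.16 was 1.39-fold and passed at an adjusted p of 0.0476, and it was -0.13 (adjusted p = 0.551) after centring on the 75th percentile. It did not pass with same-numbered arrays paired (adjusted p = 0.0836 over all 9 arrays and 0.0566 over the wild-type arrays), nor with any of LSK WT arrays 1 and 3, GMP WT arrays 1, 2 and 3 or GMP NcstnKO array 2 left out (0.06 to 0.145). The other 4 Satb1 probe sets were lower by 0.78 to 1.44 on the log2 scale and called, of which 1439315_at was at background on every array. The call of 1436182_at (-1.44 ± 0.31, adjusted p = 0.00878), which reads 9.27 to 9.61 in LSK WT, remained under both other scalings.

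Ebf1 and Pax5, which specify B cells and hold them in the lineage, differed in how far they could be read. Ebf1 read 10.28, 10.59 and 10.80 in LSK WT and 8.42, 8.21 and 7.77 in GMP WT on 1416301_a_at, a difference of -2.42 ± 0.81, or 5.37-fold (limma adjusted p = 0.0476). That call was lost after quantile normalization (adjusted p = 0.0771), after centring on the 75th percentile (0.0719) and when any array other than GMP NcstnKO arrays 1 or 3 was left out (0.0668 to 0.123). With the Actb ratio in the fit, the value was -1.38 (0.269). The dimmer Ebf1 probe sets 1416302_at, 1439789_at and 1448293_at were lower (-2.20, -1.92 and -2.32) with adjusted p of 0.00881 or less and kept their calls under both other scalings, though with the Actb ratio 1416302_at (0.0573) and 1439789_at (0.0598) lost theirs. The fifth, 1457441_at, lay at 4.59 to 4.87 on all 9 arrays.

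Pax5 was barely above the background limit on all arrays. On 1421765_at it read 5.27, 5.28 and 5.29 in LSK WT and 4.83, 4.97 and 4.84 in GMP WT, a difference of -0.40 ± 0.11 (adjusted p = 0.0205), and 1454401_at differed by -0.54 ± 0.14 (adjusted p = 0.0164). The difference on 1421765_at was -0.02 (adjusted p = 0.908) by quantile normalization and -0.05 (0.721) by 75th percentile centring, and neither Pax5 call remained under these scalings. It was also lost without LSK WT array 1 or 2 or GMP WT array 1 or 3 (0.05 to 0.0644).

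Cd79a, the signalling chain that pairs with Cd79b below the B cell receptor, read 9.60, 9.83 and 10.54 in LSK WT and 7.25, 7.99 and 7.71 in GMP WT. It was 5.07-fold lower (-2.34 ± 0.57, limma adjusted p = 0.0142), a call lost with the Actb ratio as a covariate (-1.82, 0.0914). Blnk, the adaptor that links that receptor to downstream kinases, read 8.50, 8.92 and 9.95 in LSK WT and 5.31, 6.33 and 6.79 in GMP WT, or 7.89-fold lower (-2.98 ± 0.89, adjusted p = 0.0313). For both genes every GMP WT array lay below every LSK WT array. The Blnk call was lost with same-numbered arrays paired over all 9 arrays (adjusted p = 0.0601) and held with the pairing over the wild-type arrays alone (0.00143). It was also lost after quantile normalization (0.0731), with the Actb ratio (0.16) and without any of LSK WT arrays 1, 2 or 3 or GMP WT arrays 1 or 2 (0.0501 to 0.0991).

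**Figure D2:**
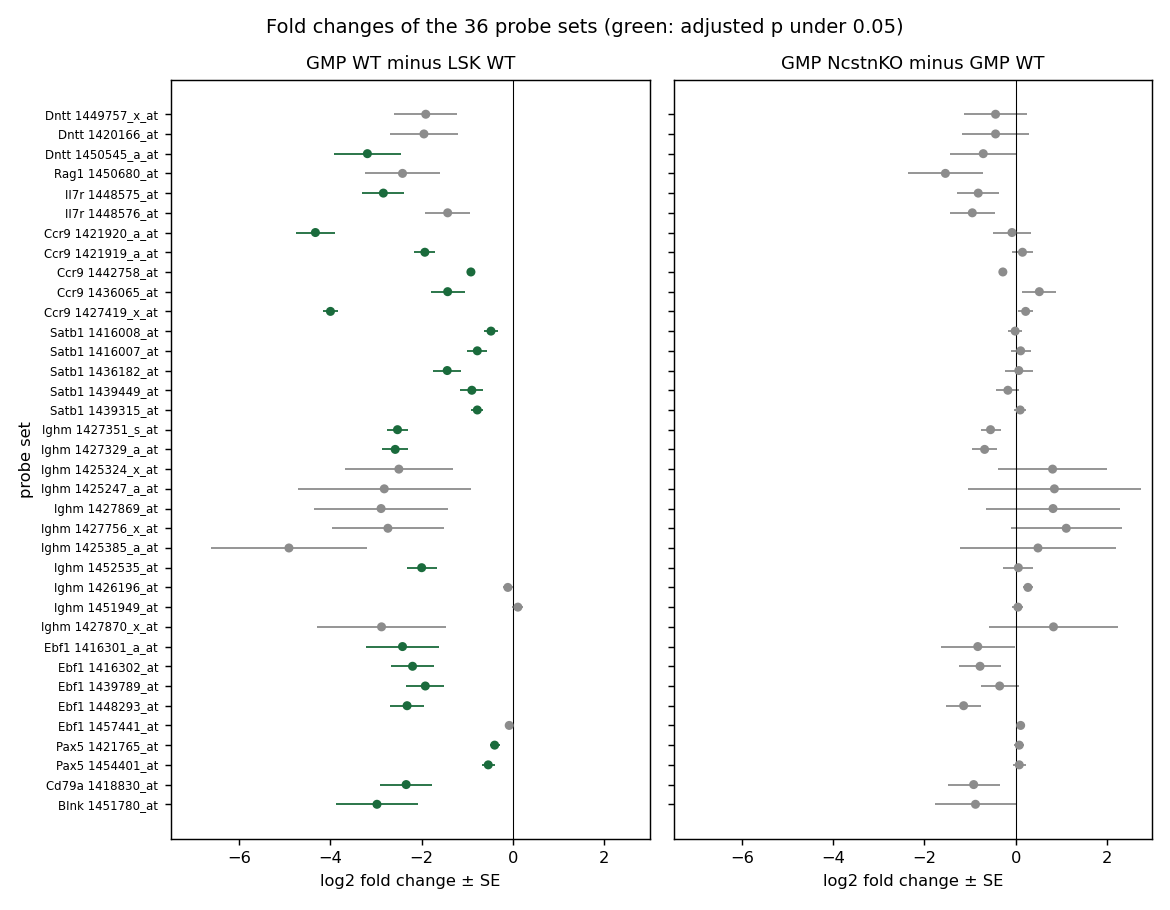
Log2 fold change with its standard error from the 9-array fit for each of the 36 probe sets, in GMP WT against LSK WT (left) and in GMP NcstnKO against GMP WT (right); green marks an adjusted p under 0.05. On the left 23 probe sets are green and all of these lie below 0, and on the right 0 are green.

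Ighm, the constant region of the immunoglobulin mu heavy chain, was read by 11 probe sets that fell into distinct patterns. The 2 bright ones separated the groups cleanly. On 1427351_s_at LSK WT read 13.36, 13.52 and 13.19 and GMP WT 10.52, 11.02 and 10.94, a 5.79-fold difference (-2.53 ± 0.22, limma adjusted p = 0.000123), and 1427329_a_at differed by -2.58 ± 0.28 (adjusted p = 0.000375). Another probe set, 1452535_at, was also called (-2.0 ± 0.33, adjusted p = 0.00237).

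On 5 further Ighm probe sets the arrays split in a way that cut across the groups. For 1425247_a_at the LSK WT arrays read 8.78, 4.02 and 11.64, the GMP WT arrays 7.61, 3.74 and 4.63, and the GMP NcstnKO arrays 7.38, 3.82 and 7.35. LSK WT arrays 1 and 3, GMP WT array 1 and GMP NcstnKO arrays 1 and 3 were thus high, and the other 4 arrays low. The same 5 arrays were the 5 highest on 1425324_x_at, 1427869_at, 1427756_x_at and 1427870_x_at, and 0 of the 5 probe sets passed the limma test in any comparison (adjusted p of 0.115 or more). All 5 were called lower in GMP WT when LSK WT array 2 was left out. A different split was seen on 1425385_a_at, which read 12.37 and 10.50 on LSK WT arrays 1 and 2 but 4.14 on array 3, and 3.96 to 5.32 on the 6 GMP arrays. Its difference of GMP WT from LSK WT had an adjusted p of 0.0557, and it was called without LSK WT array 3. The remaining 1426196_at and 1451949_at lay at 4.83 to 5.34 on all arrays. In Affymetrix naming, the endings _x_at and _s_at mark probe sets whose probes can also match other transcripts. Of the split probe sets, 1425324_x_at, 1427756_x_at and 1427870_x_at carry one, and 1425247_a_at, 1427869_at and 1425385_a_at do not. The bright 1427351_s_at carries one too, as do 1449757_x_at of Dntt and 1427419_x_at of Ccr9. The heavy chain locus holds many similar segments, so what the Ighm probe sets, split or not, read beyond Ighm is uncertain.

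**Figure D3:**
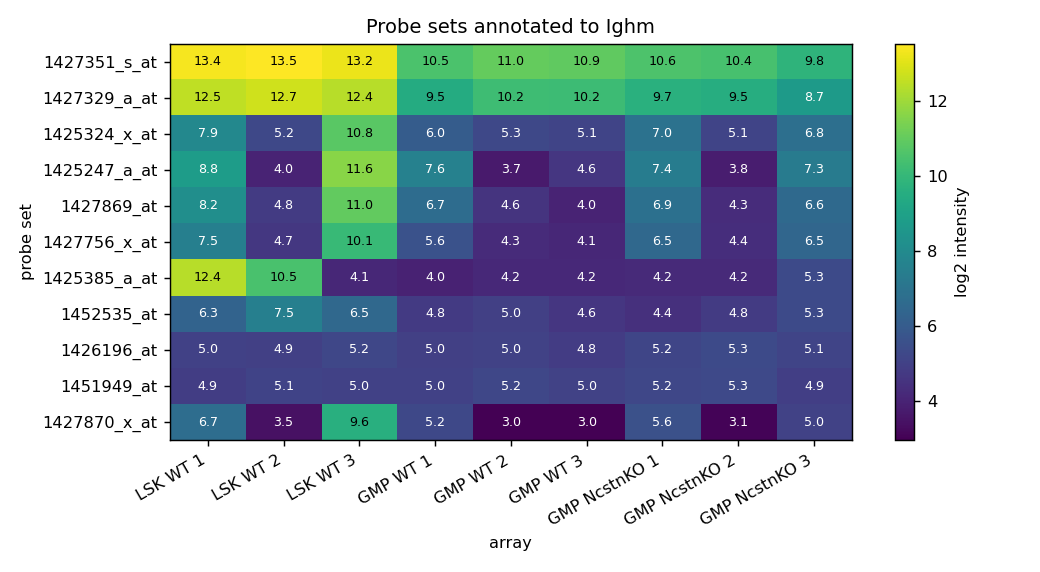
Log2 intensity of the 11 probe sets annotated to Ighm (rows, named at left) on each of the 9 arrays (columns), with the colour scale in log2 intensity. The upper 2 rows separate LSK WT from GMP arrays, while 5 of the rows below are bright in LSK WT arrays 1 and 3, GMP WT array 1 and GMP NcstnKO arrays 1 and 3.

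The second comparison, GMP NcstnKO against GMP WT, asks how these genes differ between the genotypes within the same gate. The presence of Cre cannot be told apart from the loss of nicastrin here. By transcripts all 3 GMP NcstnKO arrays were female, while GMP WT arrays 2 and 3 were male. None of the 36 probe sets passed the limma test at an adjusted p under 0.05, where 1.75% of all probe sets did, and 5 of the 36 had an unadjusted p under 0.05 (19.8% of all probe sets). By the brightest probe set, 9 of 10 genes had a negative difference, and the median was -0.68 beside 0.06 over all genes. Over all 36 probe sets, 18 had a negative difference and the median was 0.02, beside 0.04 over all probe sets. The groups did not overlap on 2 probe sets that were lower in GMP NcstnKO (12.3% of all probe sets) and 2 that were higher (14.9%). The widest differences of a brightest probe set were -1.54 ± 0.83 for Rag1 (adjusted p = 0.348), -0.92 ± 0.57 for Cd79a (0.421) and -0.88 ± 0.89 for Blnk (0.635). For Ighm it was -0.55 ± 0.22 (adjusted p = 0.208), and the dim Ebf1 probe set 1448293_at read 4.56, 5.17 and 5.08 in GMP WT and 4.45, 3.65 and 3.30 in GMP NcstnKO, where 1 of 3 arrays was above the background limit (adjusted p = 0.152). The smallest differences were -0.01 ± 0.16 for Satb1, 0.08 ± 0.11 for Pax5 and -0.08 ± 0.42 for Ccr9. Dntt differed by -0.44 ± 0.69 (adjusted p = 0.777), Il7r by -0.82 ± 0.46 (0.365) and Ebf1 on its brightest probe set by -0.83 ± 0.81 (0.622). Fitted together with the Actb ratio, the differences were -1.58 for Dntt, -2.80 for Ebf1, -1.89 for Cd79a and -2.02 for Blnk, with adjusted p of 0.555 to 0.715.

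The 3 knockout arrays differed widely among themselves. The SD of the brightest probe sets of the 10 genes had a median of 1.10 in GMP NcstnKO, beside 0.352 in GMP WT and 0.289 in LSK WT, and the same medians over all genes were 0.151, 0.123 and 0.145. The SD in GMP NcstnKO was above 1 in 5 of the 10 genes (0.94% of all genes). Array 3 was the lowest of the 3 in 10 of 10 genes (34% of all genes) and array 1 the highest in 9 of 10 (32.4%). Against the mean of GMP WT, the median over the 10 genes was 0.42 on array 1, -0.60 on array 2 and -1.78 on array 3, where each array's median over all genes was 0.05. Over all 36 probe sets these medians were 0.33, -0.33 and -0.35, the median SD in GMP NcstnKO was 0.644, and array 3 was the lowest on 27 of 36 (34.8% of all probe sets). Pax5 was the gene in which array 2 was highest.

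Rag1 read 7.30, 5.14 and 3.99 on knockout arrays 1, 2 and 3, the last below the background limit, so that array 1 lay within the GMP WT range and the other arrays below it. Ebf1 read 9.31, 7.31 and 5.29 (1416301_a_at), with array 1 above all GMP WT arrays and arrays 2 and 3 below them. Blnk read 7.27, 5.22 and 3.31, the last again below the background limit, and Cd79a read 8.20, 6.28 and 5.72. Il7r read 7.43, 6.65 and 5.82, and Ccr9 read 6.01, 5.02 and 4.23, the last below the background limit. In each of these 6 genes array 1 was the highest and array 3 the lowest. Satb1 varied little (11.47, 11.40 and 10.97), and the bright Ighm probe set 1427351_s_at read 10.58, 10.43 and 9.81. For Dntt, array 1 stood at 1.25 and array 3 at -2.19 relative to the GMP WT mean. Without array 3, the differences from GMP WT became 0.44 for Dntt, 0.17 for Ebf1 and 0.10 for Blnk, and without array 1 they became -1.28, -1.83 and -1.88, in each case without passing the test.

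**Figure D4:**
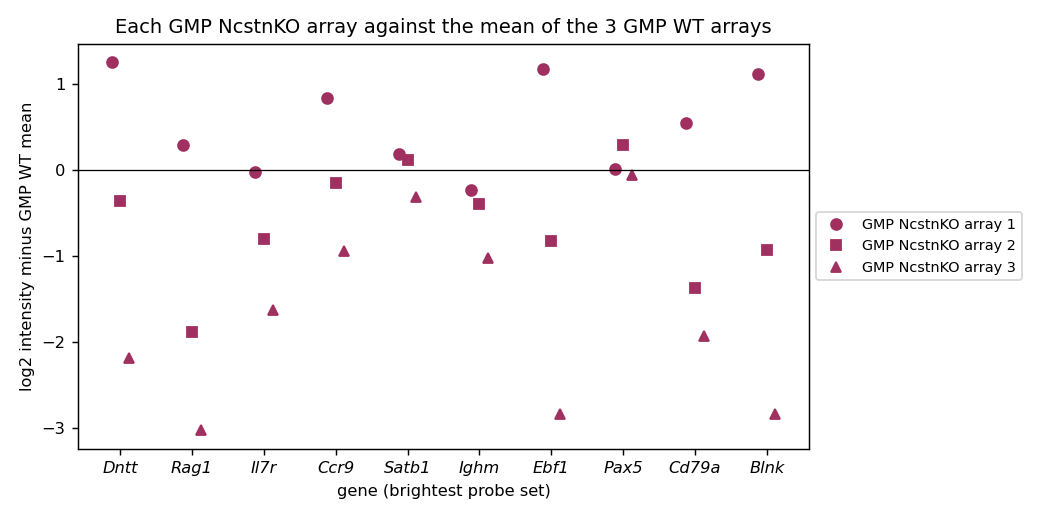
Log2 intensity of each of the 3 GMP NcstnKO arrays minus the mean of the 3 GMP WT arrays, for the brightest probe set of each gene; the line marks 0. Array 3 lies at -3.03 for Rag1, -2.84 for Ebf1 and Blnk and -2.19 for Dntt, while array 1 lies above 0 for 8 of the 10 genes.

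Other measures also differed among the knockout arrays or between the GMP groups. The summed intensity of 3 mature B cell markers (Ms4a1, Cr2 and Fcer2a; linear scale) was 149, 93.6 and 60.7 on GMP NcstnKO arrays 1, 2 and 3, 125 to 198 in GMP WT and 731 to 1310 in LSK WT. Ms4a1 is also a gene of the B lineage list below, and it alone spread widely over the knockout arrays (6.58, 5.35 and 4.16 in log2), where Cr2 (4.64, 4.47 and 4.4) and Fcer2a (4.82, 4.93 and 4.44) did not. Cr2 was at background in GMP WT. The 3 LSK markers Kit, Mecom and Procr summed to 2410, 2430 and 1960 on the knockout arrays, 2490 to 2820 in GMP WT and 7890 to 10200 in LSK WT. The 6 GMP markers summed to 37200 to 39200 in GMP NcstnKO and 40100 to 41300 in GMP WT. The 6 plasmacytoid dendritic cell markers, which include Ccr9 and Tcf4, summed to 5100, 4070 and 4070 on the knockout arrays and 4290 to 6370 in GMP WT. Of the 5 T cell markers, which summed to 292 to 302 in GMP NcstnKO and 167 to 218 in GMP WT, Thy1 was called higher in GMP NcstnKO (1.37, adjusted p = 0.0312), while Cd3d (0.48), Cd8a (0.15), Cd3e (-0.16) and Cd3g (-0.05) were not called, and Cd3g was at background in both GMP groups. Of the erythroid markers, which summed to 339 to 498 and 946 to 2140, Klf1 was called lower (-2.01, adjusted p = 0.0328) and Hba-a1 was at background in every group. The 5 plasma cell markers summed to 4860 to 6060 in GMP NcstnKO, 4330 to 4640 in GMP WT and 11700 to 13200 in LSK WT, and the 3 NK cell markers to 8030 to 9390, 8290 to 9190 and 3620 to 5690, with Ncr1 at background in both GMP groups. Nkg7 made up nearly all of the NK cell sum, and the other markers, Ncr1 and Klrd1, were lower in GMP WT than in LSK WT (adjusted p = 0.00117 and 0.0446). For Actb, the log2 signal of the 3 prime control probe set minus that of the 5 prime one, a sign of RNA quality, was 0.899 ± 0.14 (SD, n = 3) in GMP NcstnKO and 0.577 ± 0.111 in GMP WT (2-sided exact permutation test, p = 0.1, which is the lowest possible with 3 arrays in each group), and 0.748 ± 0.108 in LSK WT. Their part in the members' values was not tested.

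The third comparison, GMP NcstnKO against LSK WT, shares its arrays with the other comparisons, and its values stand beside them. Of the 36 probe sets 26 were lower and 0 higher (32.1% of all probe sets were lower and 11.4% higher), and 10 of 10 genes were lower by their brightest probe set (31.4% of all genes). The brightest probe sets differed by -2.35 for Dntt, -3.96 for Rag1, -3.66 for Il7r, -4.41 for Ccr9, -0.48 for Satb1, -3.09 for Ighm, -3.25 for Ebf1, -0.32 for Pax5, -3.26 for Cd79a and -3.86 for Blnk. In fold these were 15.5-fold for Rag1 and 14.5-fold for Blnk, where GMP WT against LSK WT gave 5.35-fold and 7.89-fold. Without GMP NcstnKO array 3, which was below the background limit for both genes, the differences from LSK WT were -3.21 for Rag1 and -2.88 for Blnk, beside -2.42 and -2.98 in GMP WT. The Pax5 difference turned to 0.04 by quantile normalization and 0.06 by 75th percentile centring. With the sex read from the transcripts as a covariate, 17 of the 36 probe sets and 6 of the 10 genes were called. With 1 array left out, 21 to 25 probe sets and 7 to 9 genes were called lower. In mean level the order was LSK WT, then GMP WT, then GMP NcstnKO for 9 of the 10 genes, and the step between the GMP groups did not pass the test for any of them.

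Partners of the members in lymphoid priming were read from a list of 20 genes, of which 18 were measured. In GMP WT, 13 of the 18 were lower than in LSK WT and 0 higher (29.2% of all genes were lower and 6.92% higher), with a median of -1.18 beside -0.18 over all genes. The 4 with the smallest p were Bcl11a, a transcription factor of lymphoid and stem cells (-1.18 ± 0.12, limma adjusted p = 0.000239), Flt3, the cytokine receptor of lymphoid-primed progenitors (-2.43 ± 0.24, 0.000243), Cd27, a TNF receptor family member (-1.32 ± 0.14, 0.000347), and Rhoh, a small GTPase of blood cells (-1.31 ± 0.16, 0.000558). The count was 8 after centring on the 75th percentile and 8 without GMP WT array 1.

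Between the GMP groups, 2 of the 18 priming partners were called, both lower in GMP NcstnKO, where 2.31% of all genes were called and 1.46% were lower. Bcl11a read 10.80, 10.79 and 11.11 in GMP WT and 10.41, 10.17 and 10.24 in GMP NcstnKO (-0.63 ± 0.12, limma adjusted p = 0.0444). Mef2c, a transcription factor that favours lymphoid over myeloid output, read 11.34, 11.74 and 11.60 against 11.00, 10.87 and 10.63 (-0.73 ± 0.14, adjusted p = 0.0451). Neither gene's GMP groups overlapped. Both calls were lost when any of the 9 arrays was left out, with adjusted p of 0.0559 to 0.172, in a fit of the GMP arrays alone (0.0922 for each), after quantile normalization (0.055 and 0.0544), and with sex, the Actb ratio or the replicate number in the fit. Stat5b, which carries interleukin 7 signals (-0.50 ± 0.12, adjusted p = 0.0688), and Tcf4 (-0.57 ± 0.2, 0.158) had the next smallest p.

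The pre-B and B lineage partners were 21 genes with 18 measured. In GMP WT 14 of the 18 were lower than in LSK WT and 0 higher (29.2% and 6.92% of all genes), with a median of -2.11. Those with the smallest p were Cd72 (-1.81 ± 0.17, limma adjusted p = 0.000162), Cd22 (-2.38 ± 0.23, 0.000194), Cd79b (-0.99 ± 0.13, 0.000947) and Blk, a Src family kinase of B cells (-2.07 ± 0.28, 0.000968). Cd72 and Cd22 are inhibitory receptors of B cells, and Cd79b is the partner chain of Cd79a. None of the 18 was called between the GMP groups, 6 had an unadjusted p under 0.05 (23.3% of all genes), and the median was -0.28. The largest of these differences was that of Pou2af1, a B cell coactivator, which read 7.44, 8.58 and 8.53 in GMP WT and 7.43, 5.61 and 3.73 in GMP NcstnKO (-2.59 ± 0.8, limma adjusted p = 0.126). Irf4 (-1.43 ± 0.48, adjusted p = 0.148), Ms4a1 (-1.59 ± 0.56, 0.163) and Spib (-1.88 ± 0.69, 0.182) followed by p, and each was highest on GMP NcstnKO array 1 and lowest on array 3. GMP NcstnKO array 1 was the highest and array 3 the lowest for 12 of these 18 genes and for 9 of the 18 priming partners (18.9% of all genes).

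Few of the kinases and adaptors below the pre-B and B cell receptor were called in GMP WT against LSK WT or between the GMP groups. In GMP NcstnKO against LSK WT, 5 of the 10 measured were lower and 2 higher, where 31.4% of all genes were lower and 13.8% higher. Of 12 genes, 10 were measured, and in GMP WT 1 was lower than in LSK WT (Inpp5d, an inhibitory lipid phosphatase, -0.45 ± 0.1, limma adjusted p = 0.00999) and 1 higher (Vav1, an exchange factor, 0.29 ± 0.09, 0.0365), where 29.2% of all genes were lower and 6.92% higher. Syk (-0.30 ± 0.14, adjusted p = 0.121) and Pik3cd (0.21 ± 0.13, 0.24) had the next smallest p, and the median was -0.13. The Inpp5d call was lost after centring on the 75th percentile. None was called between the GMP groups, where 3 of 10 had an unadjusted p under 0.05 (23.3% of all genes) and the smallest p belonged to Inpp5d (-0.43 ± 0.1, adjusted p = 0.0725), Shc1 (-0.30 ± 0.09, 0.123), Grb2 (-0.28 ± 0.1, 0.164) and Btk (0.23 ± 0.12, 0.306).

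The genes whose arrays ran most like those of Dntt were found by the root mean square difference from its brightest probe set over the 9 arrays, each gene centred on its own mean. Ly6d, a surface marker of B-primed lymphoid progenitors, was nearest at 0.408, followed by 2610307P16Rik (0.432), Hivep3 (0.46), Tpm2 (0.466) and Gask1b (0.469). Ly6d read 9.73, 10.06 and 10.48 in LSK WT, 7.54, 8.19 and 8.20 in GMP WT and 9.69, 7.96 and 7.05 in GMP NcstnKO. Array 1 of the knockouts lay above every GMP WT array and array 3 below. Ly6d was picked for its likeness to Dntt over these same arrays, so this order follows from the choice. The likeness is a description over 9 arrays that share group, amplification and normalization.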

How the data were processed

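Per the submitters' processing notes, RMA made the deposited values, with no version given. The authors deposited 1 linear intensity per probe set and array, from 3.79 to 23176, and the labels do not state whether all arrays were normalized together. Pairs of arrays shared the same value on 76 to 93 probe sets within LSK WT and on 58 to 95 among the GMP arrays. Between an LSK and a GMP array this held for 0 or 1 probe set. Whether LSK and GMP arrays were normalized apart was not tested. The log2 of the deposited values was taken and 64 control probe sets were left out. Then limma 3.58.1 (R 4.3.3), with 2-sided tests from its lmFit and eBayes functions, was fitted to 45037 probe sets over 9 arrays with 3 group means and 6 residual degrees of freedom, with Benjamini-Hochberg adjustment over all of them. Every adjusted p comes from this fit or a named alternative, and a call is an adjusted p under 0.05. Genes were read by their brightest probe set of 1 symbol (mean over 9 arrays). The background limit was set after the data were seen. The fit was tested on simulated data. No sequencing depth applies; precision is limited by how many arrays there are.

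The members and lists were chosen with earlier results of these data known. Named are all members, up to 4 genes of each partner list with the smallest p in GMP WT against LSK WT and in GMP NcstnKO against GMP WT, genes called in the latter, the 5 nearest to Dntt, Ncstn and cell type markers.

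The deviations of same-numbered LSK WT and GMP WT arrays from their group means correlated across probe sets at 0.247, 0.247 and 0.296, and those of differently numbered arrays at -0.172 to -0.0899, so the numbers were taken to pair these 2 groups, from the data and not the labels. Same-numbered GMP arrays correlated at -0.0275 to 0.032 and were not paired. Alternatives were other scalings, a log offset of 16, leaving out the dimmest 40% of probe sets, other gene summaries, other arrays in the fit, sex, the Actb ratio, the replicate number and leaving out each array.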

Additional observations from a re-analysis of the deposited data

How the results depend on the processing

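The limits of these results lie in 3 arrays a group, in levels near background for Pax5 and for Ccr9, Rag1 and Blnk on some GMP arrays, and in the scaling between LSK and GMP arrays; the cause of the changes below was not tested. No member probe set or gene was called in GMP NcstnKO against GMP WT under any alternative run. The count called over all probe sets ran from 0 to 1367 in these alternatives, and where it was near 0 the lack of a member call says little. Il7r, Ccr9 and Ighm stayed lower in GMP WT than in LSK WT and called, by their brightest probe set, in all 21 alternatives each, and Cd79a in 20 of 21, the exception being the Actb ratio as a covariate.

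The 23 member probe sets lower in GMP WT became 15 after quantile normalization, 14 without the dimmest 40% of probe sets (25 tested) and 11 with the Actb 3 prime to 5 prime ratio as a covariate, and ranged from 15 to 27 with 1 array left out. One probe set (1 in place of 0) was called higher after centring on the 75th percentile, as after quantile normalization. The 8 member genes became 4, 5, 5 and 4 under quantile normalization, the 75th percentile, the filter on dim probe sets and the Actb ratio, and 4 to 10 with 1 array left out. In GMP NcstnKO against LSK WT, 26 probe sets and 10 genes became 17 and 6 with transcript sex as a covariate. They became 21 to 25 and 7 to 9 with 1 array left out. The replicate block over all 9 arrays left 21 member probe sets lower in GMP WT, without Satb1 1416008_at and Blnk, and a block over the wild-type arrays alone, an alternative chosen after seeing the data, gave 26; the block changed no other call of a member in this comparison, apart from the Dntt, Rag1 and Il7r gains given in the report. In GMP NcstnKO against LSK WT the block ended the call of Satb1 1416008_at (adjusted p = 0.0696).

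Over all probe sets, 15710 calls in GMP WT against LSK WT became 9379 without the dim probe sets and 10130 with the Actb ratio. The 790 calls in GMP NcstnKO against GMP WT became 498 after quantile normalization, 1295 with the log offset, 1367 without the dim probe sets, 2 in a fit of these groups alone, 1 with label sex, 4 with transcript sex, 0 with the Actb ratio (3966 at an unadjusted p under 0.05) and 9 with the replicate block, and ranged from 1 to 285 with 1 array left out. The share of calls that were higher was 34.4% in this comparison, 40.6% by quantile normalization and 47% by 75th percentile centring, and in GMP NcstnKO against LSK WT it was 26.2%, 57.8% and 69% in turn.

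The partner lists were followed through the same alternatives, chosen after seeing the data. The 13 lymphoid priming partners lower in GMP WT became 8 after centring on the 75th percentile and 8 with the Actb ratio, and 8 to 13 with 1 array left out. The 2 called between the GMP groups became 0 after quantile normalization, with the mean of a gene's probe sets, in the fit of 2 groups, with either sex covariate, with the Actb ratio, with the replicate block and with any 1 array left out (0 to 0). The 1 lower signalling gene became 0 after centring on the 75th percentile, 2 with the mean of a gene's probe sets and 2 with the block over the wild-type arrays, and the 0 signalling genes called between the GMP groups became 1 with the log offset and 1 when 1 probe set per gene was tested alone.

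Differences between the GMP groups that changed sign, of which none was called, were those of Dntt (0.40 with label sex; -1.28 to 0.44 with 1 array left out), Ccr9 (0.11 with the mean of its probe sets, 0.28 with label sex, 0.15 with transcript sex; -0.55 to 0.35), Satb1 (0.00 after quantile normalization, 0.03 after the 75th percentile, 0.02 with the mean of its probe sets, 0.10 and 0.08 with label and transcript sex, 0.09 with the Actb ratio; -0.10 to 0.15), Ighm (0.37 with the mean of its probe sets), Ebf1 (0.04 with label sex; -1.83 to 0.17), Pax5 (-0.02 to 0.15) and Blnk (-1.88 to 0.10). The difference of Pax5 between GMP NcstnKO and LSK WT was 0.04 after quantile normalization and 0.06 after the 75th percentile. Counts of probe sets have no value when genes are summarized, and Pax5 was not tested without the dim probe sets.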

Other observations

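Of 5 genes read as markers of plasma cells, which secrete antibody, 4 were lower in GMP WT than in LSK WT and 1 higher. Over all genes, 29.2% were lower and 6.92% higher. Of the other marker lists, 4 of 5 T cell and 3 of 3 mature B cell markers were lower too, with 0 higher. So were 3 of 3 LSK, 2 of 3 erythroid and 2 of 6 plasmacytoid dendritic cell markers, with 0 higher. Of 3 NK cell markers 2 were lower and 1 higher, and of 6 GMP markers 2 were lower and 4 higher. Jchain, which joins immunoglobulin polymers, read 12.70, 12.70 and 12.56 in LSK WT and 9.23, 9.83 and 10.38 in GMP WT (-2.84, limma adjusted p = 0.000228). Sdc1 was lower in GMP WT (-3.31, adjusted p = 0.000166), as was Mzb1 (-2.73, 0.00349), while Xbp1, a factor of the secretory pathway, was higher by 0.64 (0.00979). Prdm1, a transcription factor of plasma cells, read 6.44 to 6.52 in LSK WT and was lower in GMP WT (-1.72, adjusted p = 5.43e-05). Mzb1 read 8.17, 6.18 and 6.22 on GMP NcstnKO arrays 1, 2 and 3 beside 6.40, 7.0 and 6.84 in GMP WT.

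The surrogate light chain genes Vpreb1 and Igll1, singled out after their values were seen, lay higher on GMP NcstnKO arrays 1 and 2 than on any GMP WT array. Vpreb1 read 11.33, 10.06 and 9.19 in GMP NcstnKO and 8.79, 9.59 and 9.88 in GMP WT (0.77, limma adjusted p = 0.489). Igll1 read 9.54, 9.02 and 8.16 beside 7.58, 8.62 and 8.73 (0.60, adjusted p = 0.479). For both genes the groups overlapped. Vpreb2 was not measured under that symbol. Vpreb3 went the other way, with 8.03, 6.37 and 5.91 in GMP NcstnKO and 7.14, 7.93 and 7.58 in GMP WT (-0.78, limma adjusted p = 0.468). Of the 18 B lineage partners measured, 12 had a negative difference between the GMP groups.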
